A study of Mus musculus with 10 samples.

Results

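RNA that existed before labelling was followed in SLAM-seq and TUC-seq libraries of NIH-3T3, an established fibroblast line of mouse embryonic origin that is labelled wild type, and set against libraries of untreated cells. The SLAM group received 800 µM 4-thiouridine (4sU) for 2 h and its RNA was then alkylated with iodoacetamide. The TUC group received the same 4sU dose and time and its RNA was then converted with osmium tetroxide and an ammonium salt. The untreated group received neither 4sU nor a conversion step. Each group holds replicates A and B, so 6 of the 10 libraries of the study are described. The other libraries (4sU without conversion, and 800 µM uridine) entered the fit of total RNA and are named only where a value turns on them. Of 17053 genes, the 9934 with 100 or more reads in all 6 libraries are described. A further 254 genes reached 100 reads in both untreated libraries but not in all 6, and 21 did so in all 4 converted libraries but not in all 6.

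4sU resembles uridine and enters RNA that is transcribed during its presence. Both chemistries turn incorporated 4sU into a base that is read as C, so reads of RNA made during labelling (new RNA) carry T-to-C mismatches, and reads of RNA made earlier (old RNA) do not. mRNAs of signalling and transcription regulators are known to turn over fast in fibroblasts, whereas mRNAs of ribosomal proteins, metabolic enzymes and matrix proteins are known to last long. Old RNA of a gene can only be lost after labelling starts, so an old level set against untreated cells is a measure of what remained, provided that both libraries are on one scale.

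The deposited table gives reads per gene and, for all libraries but the untreated ones, the new share, an estimate between 0 and 1 of the part of a gene's reads that is new. Old RNA was reads × (1 − new share), new RNA was the remainder, and both were scaled by the library's total to reads-per-million (RPM). The log2 ratio of old RNA to untreated is therefore, by arithmetic, the log2 ratio of total RNA plus log2(1 − new share). RPM are shares of a library, and the amount of RNA per cell was not measured. In bulk RNA, fewer cells expressing a gene and less RNA of it per cell cannot be told apart.

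Libraries held 30903222 and 33751151 reads (SLAM A and B), 27166279 and 31070858 reads (TUC A and B), and 33225933 and 33785682 reads (untreated A and B). New RNA made up 37.1 and 44.6% of the members' reads in SLAM A and B, and 38.9 and 45.7% in TUC A and B, so the B library was higher in each chemistry. The median new share was 0.521 and 0.610 in SLAM and 0.542 and 0.628 in TUC. It was 0.0194 and 0.0177 in the unconverted 4sU libraries. The authors' interval around the new share had a median width of 0.0399 to 0.0441 per library, and of 0.118 to 0.124 for genes with 100 to 200 reads. All 10 fibroblast markers were present in every library and summed to 20711 to 26980 RPM in SLAM, 18639 to 22028 RPM in TUC and 19971 to 23431 RPM in untreated libraries, and endothelial and epithelial markers summed to at most 1.27 and 0.275 RPM. Macrophage markers summed to 20.7 to 26.6 RPM in SLAM, 21.1 to 23.8 RPM in TUC and 17.9 to 20.6 RPM in untreated libraries, and adipocyte and muscle markers to 33.2 to 41.4, 26.2 to 34.1 and 25.2 to 35.4 RPM in SLAM, TUC and untreated libraries. Their part in the results was not tested. The labels do not say whether replicates came from separate cultures or what libraries of one letter share, and the spread behind each p-value is that between these libraries, which may be technical only. All comparisons were made within letter.

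Old RNA was lower than untreated for most genes, as its definition makes likely for any gene with new reads. With SLAM 8135 of 9934 genes (81.9%) passed as lower and 202 (2.03%) as higher, by limma with a Benjamini-Hochberg adjusted p under 0.05. Among all 12207 genes tested the background was 77.1% lower and 1.88% higher. With TUC 8274 (83.3%) passed as lower and 118 (1.19%) as higher, against a background of 78.5% lower and 1.03% higher. The remaining 1597 and 1542 genes did not pass. The median gene kept 0.403 and 0.349 of its untreated level as old RNA in SLAM A and B, and 0.395 and 0.328 in TUC A and B. Both SLAM libraries had less than 0.1 of the untreated level as old RNA for 2016 genes (20.3%), and both TUC libraries for 2049 genes (20.6%).

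The counts of genes with higher old RNA depended on single libraries and on the scaling. With SLAM they were 96 without untreated A, 67 without SLAM A, 131 without TUC A and 130 without TUC B. With TUC they were 31 without untreated A, 27 without TUC A and 11 without TUC B. Without the letter as a block they were 48 and 5. When libraries were instead scaled so that genes in the lowest of 5 equal bins of new share had a median total ratio of 1, a shift of 0.16 to 0.25 on the log2 scale, they were 58 and 5.

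Total RNA, new and old together, differed from untreated in both directions. With SLAM it passed as higher for 2637 genes (26.5%) and as lower for 3832 (38.6%), against a background of 24.2% higher and 33.5% lower among all 12218 genes tested. With TUC it passed as higher for 2326 (23.4%) and lower for 3392 (34.1%), against a background of 20.5% higher and 29.4% lower, by the quasi-likelihood test of edgeR (Benjamini-Hochberg adjusted p under 0.05). The median log2 difference over all 9934 genes was −0.06 with SLAM and −0.04 with TUC. Calls that were higher made up 40.8% of all calls with SLAM and 40.7% with TUC. Under the scaling to genes of low new share these parts were 14.7% and 6.60%, and without the letter as a block 30.8% and 15.7%. The 2326 genes that passed as higher with TUC were 1442 without TUC B. The direction of small differences in total RNA therefore depends on the scale. The main fit took in all 10 libraries and called 6469 genes with SLAM and 5718 with TUC. A fit on the 6 libraries alone called 5721 and 4861.

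Genes were put into 5 equal bins of the new share measured with the other chemistry, so that a gene's own estimate did not place it. In the bin with the lowest new share the median log2 ratio of total RNA to untreated was 0.25 and 0.16 in SLAM A and B, and 0.24 and 0.21 in TUC A and B. In the highest bin it was −0.33 and −0.11 in SLAM, and −0.23 and −0.08 in TUC. In each of the 4 libraries the lowest bin was above and the highest bin below untreated. The fall did not continue to the end, as bin 4 had −0.32 and −0.17 in SLAM and −0.27 and −0.15 in TUC. Bin 4 was thus lower than the highest bin in SLAM B and in both TUC libraries. The old ratio in the lowest bin had a median of 0.992 and 0.891 in SLAM and of 0.969 and 0.905 in TUC. In the highest bin it was 0.0312 and 0.0360 in SLAM and 0.0353 and 0.0382 in TUC. This fall of the old ratio was largely set by its definition, as both chemistries gave nearly the same new share. In the highest bin for SLAM the median share was 0.957 from TUC and 0.959 from SLAM. Binning by the other chemistry does not change this. The median length given for the genes was 2317 bases in the lowest and 4134 bases in the highest bin (SLAM), so new share and length moved together.

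**Figure D1:**
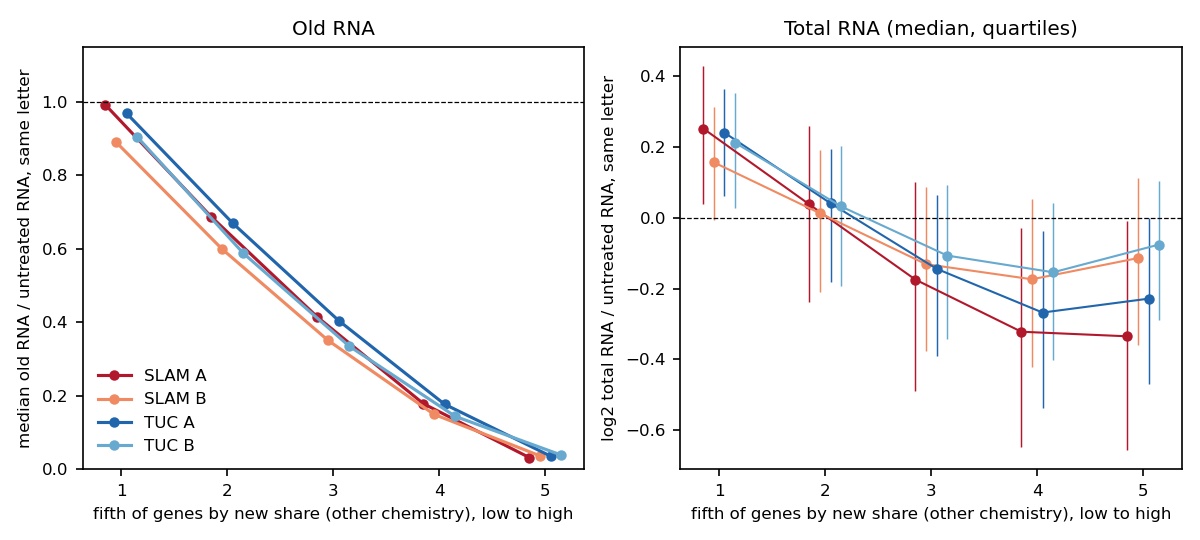
Median old RNA over untreated (left, linear ratio) and median total RNA over untreated (right, log2, bars from the lower to the upper quartile of genes) against 5 bins of new share taken from the other chemistry, for each SLAM and TUC library set against the untreated library of the same letter. Median old RNA in the lowest bin lies between 0.891 and 0.992 of untreated, and its fall over the bins is largely set by its definition. Median total RNA lies above untreated in the lowest and below it in the highest bin in all 4 libraries.

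Immediate-early genes, the first genes that growth signals switch on, had almost no old RNA left. All 26 members of that list (of 28) passed as lower for old RNA with SLAM and with TUC, with median log2 differences of −6.03 and −5.20, against −1.41 and −1.46 over all genes. The list's median old ratio was 0.0107 and 0.020 in SLAM A and B, and 0.0214 and 0.0315 in TUC A and B. Taking old RNA as at least 3 reads in each library gave medians of −5.93 and −5.20. With the lower bound of the new share they were −4.42 and −4.49, and with the upper bound −6.82 and −6.03. Adding 0.5 RPM before the logarithm in place of 0.1 gave −5.09 and −4.73. All 26 stayed lower in each of these settings, but the size of the difference depended on them. Of the same 26 genes, total RNA passed as higher for 15 and lower for 3 with SLAM (median 0.20), and as higher for 8 and lower for 5 with TUC (median 0.04), but under the scaling to low new share these medians were −0.0074 and −0.19. Without the letter block 6 passed as higher with SLAM and 1 with TUC, and the 8 with TUC were 3 without TUC B, while the 5 lower were 2 without untreated A or TUC A.

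Nr4a1 (ENSMUSG00000023034), an orphan nuclear receptor induced by growth signals, had total levels of 599 and 775 RPM in SLAM, 508 and 643 RPM in TUC, and 511 and 697 RPM in untreated libraries. Its old RNA was at 0 in both SLAM libraries and in TUC A, and 6.24 RPM in TUC B. Almost all of its reads were thus estimated as new, while its total overlapped untreated between letters and passed within letter as higher with SLAM alone (0.19 ± 0.055 on the log2 scale, SE; edgeR adjusted p = 0.00976; TUC −0.06 ± 0.055, adjusted p = 0.378). The total difference of 0.19 with SLAM is no larger than the shift of 0.16 to 0.25 made by the scaling to low new share. With the lower bound of the new share, and at least 3 reads, old Nr4a1 RNA was at least 577-fold lower than untreated in SLAM. This bound is the geometric mean of those of A and B. Ctgf (ENSMUSG00000019997), a secreted matricellular protein, stood at 523 and 512 RPM in SLAM, 487 and 474 RPM in TUC, and 452 and 372 RPM in untreated libraries as total RNA. Its old RNA was at 0 in all 4 converted libraries. By the same bound, a geometric mean of A and B, it was at least 663-fold lower than untreated in SLAM and 268-fold lower in TUC.

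Sgk1, a serum-regulated kinase, differed from these in its total level, which was 481 and 458 RPM in SLAM, 579 and 589.9 RPM in TUC, and 724 and 707 RPM in untreated libraries. The groups did not overlap, and total RNA fell by 0.61 ± 0.045 on the log2 scale with SLAM (SE; edgeR adjusted p = 6.62e-07) and by 0.29 ± 0.044 with TUC (adjusted p = 0.000196, not passed without the letter block). Myc, a transcription factor of growth, had old levels of 1.75 and 1.11 RPM in SLAM and 1.40 and 2.55 RPM in TUC, against totals of 100.0 and 79.5 RPM in untreated libraries. Jun, an AP-1 subunit, kept more, with old levels of 7.19 and 12.4 RPM in SLAM and 6.11 and 8.75 RPM in TUC, against 202 and 177 RPM in untreated libraries. Fosl1, another AP-1 subunit that overlaps Ccdc85b in the annotation so that their reads may not be separable, had old levels of 2.24 and 2.44 RPM in SLAM and 4.87 and 4.73 RPM in TUC, against 178 and 178 RPM in untreated libraries.

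Other short-lived regulators also had little old RNA. All 35 members of that list (of 35) passed as lower for old RNA with either chemistry, with medians of −5.21 (SLAM) and −5.09 (TUC), and 34 passed in each without the letter block. Total RNA of the list passed as higher for 19 and lower for 6 with SLAM (median 0.18), and as higher for 13 and lower for 5 with TUC (median 0.08), but its medians under the scaling to low new share were −0.02 and −0.15. The 13 were 7 without TUC B, and without the letter block 6 passed as higher with SLAM and 2 with TUC. Mcl1, an antiapoptotic BCL-2 family protein, had old levels of 4.35 and 5.45 RPM in SLAM and 4.05 and 4.16 RPM in TUC, against 212 and 208 RPM in untreated libraries. Its total level, 142 and 141 RPM in SLAM and 154 and 161 RPM in TUC, lay below every untreated value, a log2 difference of −0.57 ± 0.048 with SLAM (SE; edgeR adjusted p = 1.42e-06) and −0.41 ± 0.048 with TUC (adjusted p = 2.80e-05).

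Secreted inflammatory factors and their regulators also lost nearly all old RNA, with 16 of 16 members (of 20) passing as lower in each chemistry and medians of −4.87 (SLAM) and −4.59 (TUC). Total RNA passed as higher for 5 and lower for 4 with SLAM, and likewise for 5 and 4 with TUC. Over all 9934 genes it passed as higher for 26.5% and lower for 38.6% with SLAM, and for 23.4% and 34.1% with TUC. The medians of the list were −0.03 and −0.0019, and 0.03 and 0.05 with TMM factors. Under the scaling to low new share 1 passed as higher and 8 as lower with each chemistry, with medians of −0.24 and −0.23. The 5 higher with SLAM were 2 without untreated B, the 4 lower with TUC were 2 without untreated A, and without the letter block 1 passed as higher with each. Ptgs2 (ENSMUSG00000032487), the inducible cyclooxygenase, had totals of 750.1 and 788 RPM in SLAM, 859.9 and 844 RPM in TUC, and 624 and 532 RPM in untreated libraries. All 4 converted libraries were above both untreated ones, and its old RNA was at 0 except for 0.507 RPM in TUC B. Old RNA in SLAM was at least 753-fold lower than untreated, by the bound used for Nr4a1, a geometric mean of A and B. The unconverted 4sU libraries were higher still for total Ptgs2, at 1042 and 1021 RPM.

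**Figure D2:**
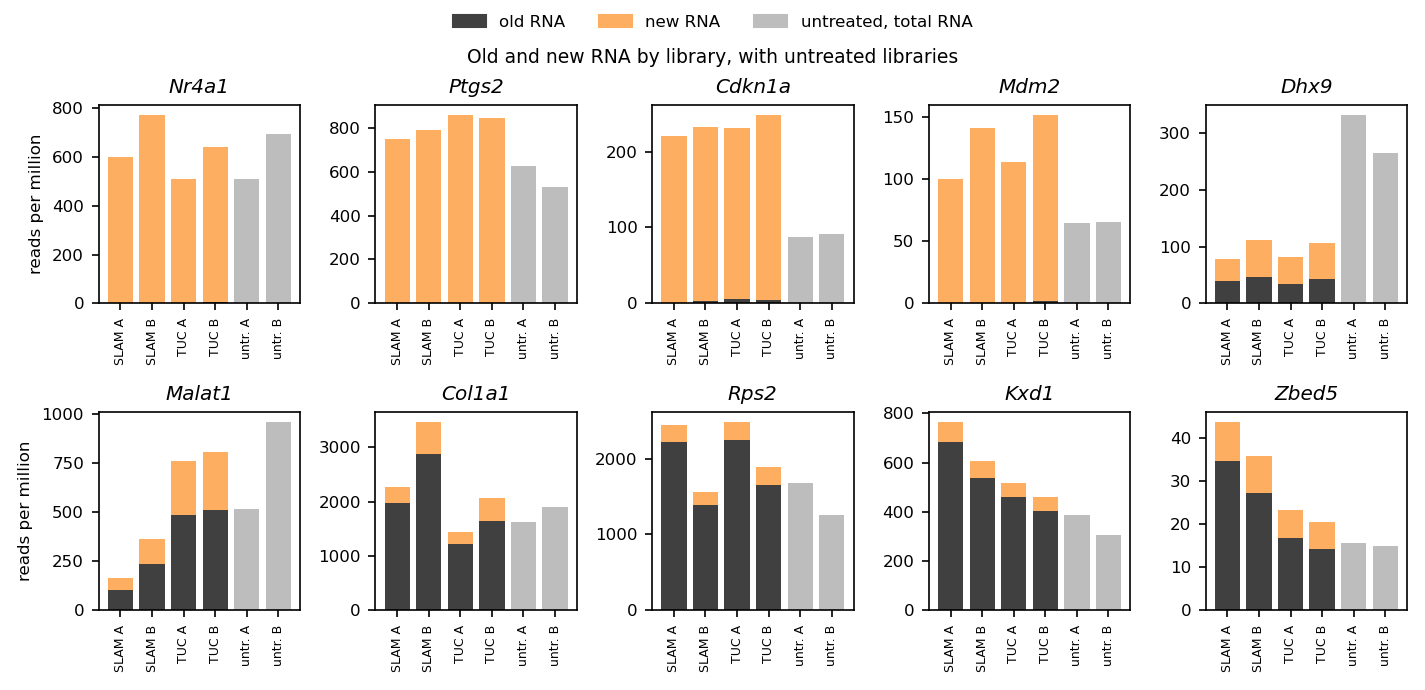
RPM of old RNA (dark) and new RNA (orange), stacked to the total, for 10 genes in each SLAM and TUC library, with total RNA of each untreated library in grey. Nr4a1 and Ptgs2 are nearly all new, Cdkn1a and Mdm2 are nearly all new with totals above untreated, Rps2 and Kxd1 are mostly old, and Dhx9 has both less old and less total RNA than untreated.

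Targets of p53, a transcription factor that responds to damaged DNA and to stress of the nucleolus, combined little old RNA with higher totals. Of 27 members (of 32), 17 passed as higher and 5 as lower for total RNA with SLAM (median 0.41), and 17 as higher and 4 as lower with TUC (median 0.39), against −0.06 and −0.04 over all genes. Under the scaling to low new share the counts were 14 and 8 with SLAM and 14 and 6 with TUC, with medians of 0.20 and 0.16. Without the letter block they were 12 and 2 with SLAM, and 11 and 0 with TUC, and without untreated A the 4 lower with TUC were 2. Old RNA passed as lower for 25 with each chemistry, with medians of −3.12 (SLAM) and −3.36 (TUC). Dcxr, which encodes a dicarbonyl and L-xylulose reductase, was the 1 member that passed as higher for old RNA with SLAM, by 0.55 on the log2 scale, and it did not pass without untreated A, without SLAM A or under the scaling to low new share.

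Cdkn1a (ENSMUSG00000023067), whose product p21 inhibits cyclin-dependent kinases, had totals of 221 and 233 RPM in SLAM, 231 and 249 RPM in TUC, and 86.7 and 91.4 RPM in untreated libraries. The groups were far apart, with log2 differences of 1.35 ± 0.046 with SLAM (SE; edgeR adjusted p = 1.31e-08) and 1.43 ± 0.046 with TUC (adjusted p = 6.87e-09). The new RNA alone, 220.9 and 230.5 RPM in SLAM and 225.3 and 244.7 RPM in TUC, exceeded the whole untreated level. Old Cdkn1a was 0.199 and 2.49 RPM in SLAM and 5.30 and 4.00 RPM in TUC, so less than 0.1 of untreated in each library. In the unconverted 4sU libraries its total was 242 and 248 RPM, close to both chemistries.

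Mdm2 (ENSMUSG00000020184), the ubiquitin ligase that degrades p53, had totals of 100.0 and 141 RPM in SLAM, 114 and 152 RPM in TUC, and 64.3 and 65.2 RPM in untreated libraries. Total Mdm2 rose by 0.88 ± 0.090 on the log2 scale with SLAM (SE; edgeR adjusted p = 6.06e-06) and by 1.02 ± 0.090 with TUC (adjusted p = 4.65e-06), and the B library was higher in each chemistry. Its old level lay between 0.352 and 1.64 RPM. Btg2, an antiproliferative factor, had totals of 28.9 and 29.6 RPM in SLAM, 35.9 and 36.7 RPM in TUC, and 15 and 15.9 RPM in untreated libraries, and its old RNA did not exceed 0.404 RPM.

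Phlda3, an inhibitor of AKT signalling, kept more old RNA, at 17.8 and 13.0 RPM in SLAM and 14.0 and 13.3 RPM in TUC, against totals of 55.5 and 61.2 RPM in untreated libraries. Its totals of 139 and 129 RPM in SLAM and 122 and 135 RPM in TUC were all above untreated, by 1.20 ± 0.067 and 1.14 ± 0.067 on the log2 scale (SE; edgeR adjusted p = 1.29e-07 and 7.33e-07). Psrc1, a microtubule-associated protein, likewise kept 10.3 and 5.33 RPM in SLAM and 9.66 and 7.23 RPM in TUC, against 17.7 and 19.8 RPM in untreated libraries. Ccng2, a cyclin family member, went the other way in total RNA, with 5.63 and 9.30 RPM in SLAM, 6.33 and 11.1 RPM in TUC, and 10.8 and 16.3 RPM in untreated libraries, lower in each letter. The others with lower totals in both chemistries were Xpc, Sesn1 and Rrm2b.

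New RNA alone was above the untreated total in both SLAM libraries for 443 genes, of which 12 were in the p53 list, and in both TUC libraries for 346 genes, of which 13 were. Total RNA was over 2 times untreated in both TUC libraries for 6 genes, and all 6 were in the p53 list. It was over 2 times untreated in both SLAM libraries for 22 genes, of which 4 were in that list, and their median length was 867 bases. The p53 list holds 27 of the 9934 genes. It was chosen with earlier results of these data known, so these overlaps are a description and not independent evidence.

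Ribosomal protein mRNAs, which are abundant and known to be stable, stood at the other end, with list medians of the new share from 0.130 to 0.148. Old RNA had a median ratio to untreated of 1.11 and 0.997 in SLAM A and B, and 1.13 and 1.14 in TUC A and B. Of 79 members (of 79), 14 passed as higher and 6 as lower for old RNA with SLAM (median 0.07), and 35 as higher and 0 as lower with TUC (median 0.20), but under the scaling to low new share the medians were −0.14 and −0.04, with 3 higher and 35 lower for SLAM and 1 higher and 7 lower for TUC. The count of higher old RNA with TUC was 6 without untreated A, 7 without untreated B, 10 without TUC A and 3 without TUC B. With SLAM it was 2 without untreated A, 5 without untreated B, 6 without SLAM A and 9 without TUC A or TUC B, and the 6 lower were 3 without untreated B, SLAM B, TUC A or TUC B. Without the letter block the count of higher old RNA was 0 for both chemistries. Whether old ribosomal protein mRNA lay above untreated thus depended on the scale and on single libraries.

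Total RNA of the ribosomal proteins passed as higher for 62 members and lower for 1 with SLAM (median 0.28) and as higher for 79 with TUC (median 0.41), a direction that stayed under the scaling to low new share at medians of 0.08 and 0.18. Without the letter block 1 passed as higher with SLAM and 0 with TUC. Rps2 (ENSMUSG00000044533), a protein of the small ribosomal subunit whose locus overlaps Snhg9 and 2 small nucleolar RNAs, had old levels of 2225 and 1381 RPM in SLAM and 2240 and 1655 RPM in TUC, against totals of 1678 and 1257 RPM in untreated libraries. Within each letter the old level was above untreated, while A and B overlapped between groups. The log2 difference of old RNA was 0.27 ± 0.096 with SLAM (SE; limma adjusted p = 0.0164) and 0.41 ± 0.096 with TUC (adjusted p = 0.000967, not passed without the letter block or without untreated A). Rplp0, a protein of the ribosomal stalk, showed the same order, with old levels of 3665 and 2971 RPM in SLAM and 3654 and 3124 RPM in TUC, against 2991 and 2556 RPM in untreated libraries.

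Oxidative phosphorylation subunits, all encoded in the nucleus in this list, were close to untreated in old RNA. Of 64 members (of 64), 4 passed as higher and 10 as lower with SLAM (median −0.05), and 10 as higher and 1 as lower with TUC (median 0.12), but under the scaling to low new share 0 were higher and 45 and 16 lower (medians −0.25 and −0.11), and with TMM factors the SLAM median was 0.01. With TUC the 10 became 2 without untreated A, 1 without TUC A and 0 without TUC B. With SLAM the 4 became 1 without untreated A and 0 without SLAM A, and the 10 lower became 6 without SLAM A and 2 without SLAM B. Without the letter block 0 passed as higher with either chemistry. Among all 9934 genes old RNA passed as lower for 81.9% with SLAM and 83.3% with TUC. Total RNA passed as higher for 37 and lower for 2 with SLAM (median 0.17) and as higher for 62 with TUC (median 0.36), and under the scaling to low new share the medians were −0.03 and 0.13. The 37 were 21 without untreated A, and without the letter block 5 passed as higher with each chemistry. Cox4i1, a nuclear-encoded subunit of cytochrome c oxidase, had old levels of 384 and 303 RPM in SLAM and 423 and 416 RPM in TUC, against 354 and 332 RPM in untreated libraries.

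For glycolysis enzymes, old RNA passed as higher for 3 of 17 members (of 19) and lower for 8 with SLAM (median −0.07). With TUC it passed as higher for 1 and lower for 7 (median −0.10). Among all 9934 genes 81.9% (SLAM) and 83.3% (TUC) passed as lower. The 3 higher were 0 without untreated A or the letter block, 1 without SLAM A and 2 without TUC A or TUC B, and the 8 lower were 4 without SLAM B or the block. Under the scaling to low new share 0 were higher and 11 lower with SLAM, and 0 higher and 15 lower with TUC. Gapdh, the glyceraldehyde-3-phosphate dehydrogenase often used as a reference, had old levels of 3301 and 2097 RPM in SLAM and 2640 and 2008 RPM in TUC, against totals of 2287 and 1837 RPM in untreated libraries. It passed with SLAM (0.36 ± 0.101 on the log2 scale, SE; limma adjusted p = 0.00368) but not without the letter block, without untreated A or under the scaling to low new share. Ldhb, a lactate dehydrogenase subunit, passed as higher in both, but with neither chemistry without the letter block, without untreated A or under the scaling to low new share, and with TUC also not without TUC A or TUC B. Its old levels were 95.8 and 99.6 RPM in SLAM and 96.9 and 105 RPM in TUC, against 75.4 and 91.7 RPM in untreated libraries. Actb, cytoskeletal actin and another common reference, had old levels of 3051 and 2598 RPM in SLAM and 2279 and 2128 RPM in TUC, with totals of 5282 and 4877 RPM in SLAM, 4382 and 4415 RPM in TUC and 3426 and 3585 RPM in untreated libraries, so its total was higher and its old level lower than untreated in all 4 converted libraries. Hk2, the inducible hexokinase, differed from these, with an old level of 0.699 to 2.10 RPM over the 4 converted libraries, against 105 and 135 RPM in untreated libraries.

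Collagens and other matrix genes kept a median of 0.865 and 0.849 of untreated as old RNA in SLAM A and B, and 0.772 and 0.740 in TUC. Of 29 members (of 30), 3 passed as higher and 15 as lower with SLAM (median −0.23). With TUC 0 passed as higher and 19 as lower (median −0.40). All 9934 genes had 2.03% higher and 81.9% lower with SLAM (median −1.41), and 1.19% higher and 83.3% lower with TUC (median −1.46). The members that passed as higher with SLAM were Col1a1, Col6a2 and Bgn, a small proteoglycan. The 3 were 1 without untreated B and 2 without untreated A or SLAM B. Under the scaling to low new share 1 was higher and 21 lower with SLAM and 0 higher and 28 lower with TUC, and without the letter block 0 were higher and 9 lower with SLAM and 0 higher and 10 lower with TUC. Thbs1, a matricellular protein, had old levels of 87.9 and 61.9 RPM in SLAM and 84.3 and 76.0 RPM in TUC, against 2226 and 2799 RPM in untreated libraries. Total Thbs1 was 1809 and 3051 RPM in SLAM and 1790 and 2658 RPM in TUC, did not pass in either comparison and overlapped untreated. Fn1, fibronectin, had old levels of 5029 and 9150 RPM in SLAM and 4592 and 6742 RPM in TUC, against 7705 and 10928 RPM in untreated libraries.

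**Figure D3:**
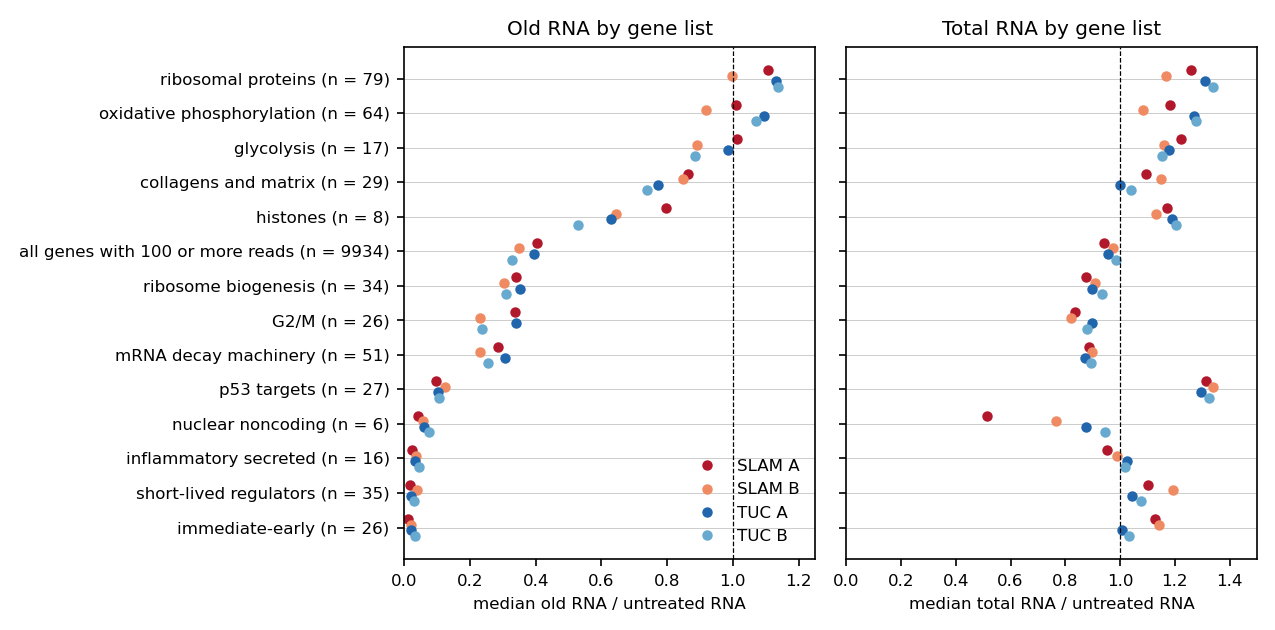
Median ratio of old RNA (left) and of total RNA (right) to untreated RNA of the same letter, on linear axes, with a row for each gene list and a point for each SLAM and TUC library. The dashed line marks the untreated level. Immediate-early genes, short-lived regulators and inflammatory factors have median old RNA of at most 0.0436 and median total RNA of 0.952 to 1.19 of untreated, and ribosomal proteins have old RNA near untreated.

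Over all genes, old RNA was above untreated in both SLAM libraries for 517 genes (5.20%) and in both TUC libraries for 558 (5.62%). The 517 genes had a median length of 1851 bases, against 3541 for the other genes, and 36 of them were ribosomal proteins. The 558 genes had a median length of 1291 bases, against 3571 for the other genes, and 75 of them were ribosomal proteins and 42 oxidative phosphorylation subunits. Scaled to genes of low new share, the counts were 187 and 71. In single libraries old RNA was above untreated for 1075 genes in SLAM A, 553 in SLAM B, 865 in TUC A and 617 in TUC B. Kxd1 (ENSMUSG00000055553), a protein of a complex that positions lysosomes, had old levels of 682 and 539 RPM in SLAM and 462 and 403 RPM in TUC, against totals of 388 and 305 RPM in untreated libraries and 401 and 353 RPM in unconverted 4sU libraries. The log2 difference was 0.82 ± 0.087 with SLAM (SE; limma adjusted p = 1.74e-07) and 0.33 ± 0.087 with TUC (adjusted p = 0.00246). Nenf, a secreted neurotrophic factor, had old levels of 58.1 and 47.1 RPM in SLAM and 51.5 and 48.0 RPM in TUC, against 35.8 and 35.2 RPM in untreated libraries, above untreated in every converted library.

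Genes of the G2 and M phases of the cell cycle lay between these extremes. Of 26 members (of 26), 25 passed as lower for old RNA with each chemistry, with medians of −1.84 in each. Over all 9934 genes 81.9% (SLAM) and 83.3% (TUC) passed as lower, with medians of −1.41 and −1.46. For total RNA the shares of all genes were 26.5% higher and 38.6% lower with SLAM, and 23.4% and 34.1% with TUC. Total RNA passed as higher for 5 and lower for 16 with SLAM (median −0.25), and as higher for 2 and lower for 16 with TUC (median −0.20). This direction of total RNA stayed with TMM factors and under the scaling to low new share. The 5 higher were 2 without untreated A and 3 without untreated B. Top2a, the topoisomerase of mitotic chromosomes, had totals of 291 and 297 RPM in SLAM, 316 and 283 RPM in TUC, and 508 and 500.2 RPM in untreated libraries. Its old level was 198 and 174 RPM in SLAM and 214 and 161 RPM in TUC, so the total and the old level both lay below untreated. Aspm, a spindle pole protein with a long mRNA, had totals of 16.6 and 20.3 RPM in SLAM and 18.1 and 18.9 RPM in TUC, against 44.3 and 44.6 RPM in untreated libraries.

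Ribosome biogenesis factors passed as lower for old RNA in 33 of 34 members with each chemistry, with medians of −1.63 (SLAM) and −1.56 (TUC). These medians are near those of all 9934 genes, −1.41 and −1.46, of which 81.9% (SLAM) and 83.3% (TUC) passed as lower. For total RNA the shares of all genes were 26.5% higher and 38.6% lower with SLAM, and 23.4% and 34.1% with TUC. Total RNA passed as higher for 5 and lower for 19 with SLAM (median −0.19) and as higher for 6 and lower for 16 with TUC (median −0.11), the 6 being 1 without untreated A and 3 without TUC A or TUC B. Utp20, a factor of small subunit processing, had old levels of 51.6 and 59.6 RPM in SLAM and 58.9 and 53.6 RPM in TUC, against 186 and 202 RPM in untreated libraries. Wdr43, a nucleolar processing factor whose locus overlaps small nucleolar RNAs, kept far less, with 8.31 and 6.11 RPM in SLAM and 10.5 and 7.72 RPM in TUC, against 253 and 229 RPM in untreated libraries.

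The mRNA decay machinery, whose members remove poly(A) tails and caps and degrade mRNA, had lower old RNA for 47 of 51 members (of 52) with SLAM and 48 with TUC, with medians of −1.97 and −1.88. Over all 9934 genes 81.9% and 83.3% passed as lower, with medians of −1.41 with SLAM and −1.46 with TUC. For total RNA the shares of all genes were 26.5% higher and 38.6% lower with SLAM, and 23.4% and 34.1% with TUC. Lsm4, a subunit of the LSM ring, was higher in both, by 0.35 with SLAM and 0.28 with TUC on the log2 scale. It did not pass with either chemistry without the letter block or under the scaling to low new share, nor with SLAM without SLAM A, nor with TUC without untreated A, untreated B, TUC A or TUC B. Total RNA passed as higher for 9 and lower for 24 with SLAM (median −0.19) and as higher for 10 and lower for 27 with TUC (median −0.19). The 9 were 5 without untreated B, the 10 were 3 without untreated A, 6 without TUC A and 4 without TUC B, and the 27 were 17 without TUC A. Cnot1, the scaffold of the deadenylase complex whose locus overlaps Setd6, had totals of 116 and 151 RPM in SLAM, 131 and 136 RPM in TUC, 271 and 275 RPM in untreated libraries, and 188 and 200.5 RPM in unconverted 4sU libraries. Total Cnot1 fell by 1.04 ± 0.072 with SLAM (SE; edgeR adjusted p = 4.94e-07) and by 1.03 ± 0.073 with TUC (adjusted p = 1.57e-06) on the log2 scale. Pabpc1, the cytoplasmic poly(A) binding protein, kept 1824 and 1847 RPM as old RNA in SLAM and 1365 and 1399 RPM in TUC, against 1664 and 1724 RPM in untreated libraries.

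Histone genes had 8 members (of 17), of which old RNA passed as lower for 5 with SLAM (median −0.47). With TUC it passed as higher for 1, H2afv, and lower for 6 (median −0.79). Among all 9934 genes 81.9% (SLAM) and 83.3% (TUC) passed as lower, with medians of −1.41 and −1.46, further below untreated than those of the histones. The call of H2afv was lost without the letter block, under the scaling to low new share, and without any 1 of the converted libraries or untreated B. Total RNA passed as higher for 4 and lower for 1 with SLAM (median 0.16), and as higher for 6 with TUC (median 0.28). For all genes the shares higher and lower were 26.5% and 38.6% with SLAM, and 23.4% and 34.1% with TUC. Under the scaling to low new share the histone medians were −0.04 and 0.05. The 6 were 3 without untreated B or TUC B.

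Total RNA was compared with gene length because the lowest totals belonged to long genes. In 5 equal bins of the length given in the table, with medians from 1445 to 6857 bases, the median total ratio to untreated in the shortest and longest bins was 1.21 and 0.649 in SLAM A, 1.12 and 0.786 in SLAM B, 1.19 and 0.710 in TUC A, and 1.20 and 0.768 in TUC B. It was 1.08 and 0.868 in unconverted 4sU A, 1.06 and 0.922 in unconverted 4sU B, 1.03 and 0.964 in uridine A, and 0.989 and 1.00 in uridine B. Median new share was higher with length over the same bins, with 0.330 in the shortest and 0.731 in the longest. For the bins of new share below, the mean over all 4 converted libraries was used, so a gene's own estimate was included. Within the bin of lowest new share the ratio still ran from 1.28 to 0.829 in SLAM A, 1.17 to 0.913 in SLAM B, 1.27 to 0.852 in TUC A and 1.27 to 0.824 in TUC B, from the shortest to the longest genes. Within the bin of highest new share it ran from 1.12 to 0.608 in SLAM A, 1.09 to 0.791 in SLAM B, 1.07 to 0.692 in TUC A and 1.16 to 0.799 in TUC B. In unconverted 4sU libraries the ratio ran from 1.12 to 0.981 (A) and 1.09 to 0.992 (B) at the lowest new share, and from 1.04 to 0.877 (A) and 1.05 to 0.972 (B) at the highest. Each converted library thus had lower totals for longer genes at low and at high new share, as a description with no test.

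**Figure D4:**
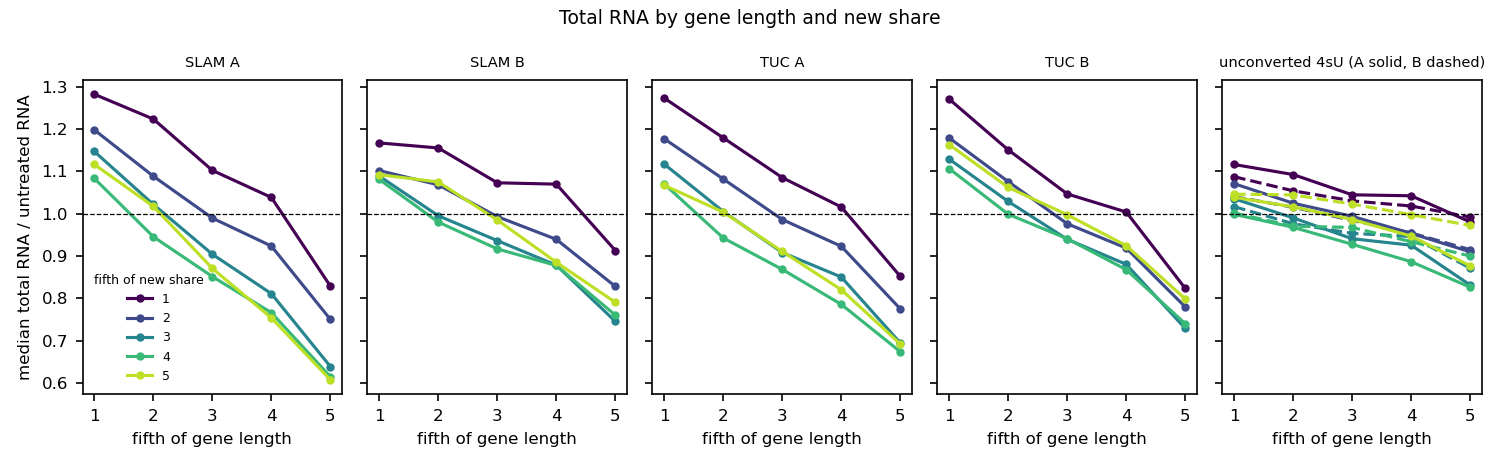
Median total RNA over untreated (linear ratio) for 5 bins of gene length, short to long, with a line for each of 5 bins of new share, in a panel for each SLAM and TUC library and 1 for the unconverted 4sU libraries. Bins of new share use the mean over all 4 converted libraries. In the lowest new-share bin the converted libraries run from between 1.17 and 1.28 for short genes to between 0.824 and 0.913 for long genes.

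Total RNA was under 0.5 of untreated in both SLAM libraries for 87 genes, with a median length of 6923 bases, and in both TUC libraries for 63 genes, with a median length of 9672 bases. Dhx9 (ENSMUSG00000042699), an RNA helicase, had totals of 77.8 and 112 RPM in SLAM, 81.5 and 107 RPM in TUC, 333 and 264 RPM in untreated libraries, and 151 and 147 RPM in unconverted 4sU libraries. Every converted value lay below every unconverted 4sU value, which lay below untreated. Total Dhx9 fell by 1.66 ± 0.167 with SLAM (SE; edgeR adjusted p = 5.46e-06) and by 1.67 ± 0.168 with TUC (adjusted p = 1.13e-05) on the log2 scale. Its old RNA was 39.5 and 46.2 RPM in SLAM and 34.8 and 43.0 RPM in TUC, with a new share of 0.492 to 0.598, so its total was low without its reads being mostly new.

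Atm, the kinase that responds to DNA breaks, had totals of 8.77 and 15.7 RPM in SLAM, 11.2 and 13.3 RPM in TUC, 29.7 and 35.9 RPM in untreated libraries, and 22.1 and 24.8 RPM in unconverted 4sU libraries. Smg1, a kinase of nonsense-mediated decay, had totals of 49.5 and 104 RPM in SLAM, 60.7 and 96.9 RPM in TUC, 152 and 209.7 RPM in untreated libraries, and 102 and 157 RPM in unconverted 4sU libraries, with the B library higher in each group. Its fall of 1.30 ± 0.101 with SLAM and 1.22 ± 0.101 with TUC on the log2 scale (SE; edgeR adjusted p = 9.11e-07 and 3.32e-06) was not passed without the letter block. Zbed6, a transcription factor whose coding sequence lies within Zc3h11a so that their reads may not be separable, had the lowest log2 difference of total RNA among the genes named here, −2.01 ± 0.242 with SLAM and −1.85 ± 0.243 with TUC. It had totals of 7.54 and 28.0 RPM in SLAM, 17.2 and 20.2 RPM in TUC, and 58.0 and 76.5 RPM in untreated libraries.

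Few genes passed for old RNA between the chemistries. Of 9934 genes 120 (1.21%) passed as higher in TUC than in SLAM and 101 (1.02%) as lower (limma adjusted p under 0.05), against a background of 1.06% higher and 0.868% lower among all genes tested, 9713 did not pass, and the median log2 difference was −0.02. Without untreated A or without untreated B all of these calls were lost, although leaving out any other library costs as many degrees of freedom. The reason was not tested. Without SLAM A 400 genes passed and without SLAM B 493. All values below for TUC against SLAM lost their call without either untreated library and without the letter block. Of the 120 genes, 55 had a new share of exactly 1 in a SLAM library, where old RNA is 0, and their median new share was 0.979. Of the 101 genes, 5 had a new share of 1 in a TUC library, and their median new share was 0.630. The part of calls that were higher was 54.3%, and 35.1% under the scaling to low new share.

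Malat1 (ENSMUSG00000092341), an abundant nuclear long noncoding RNA whose locus includes the small RNA Mascrna, had totals of 761 and 807 RPM in TUC, 164 and 364 RPM in SLAM, 518 and 962 RPM in untreated libraries, and 475 and 1135 RPM in unconverted 4sU libraries. Its old level was 484 and 509.7 RPM in TUC and 101 and 234 RPM in SLAM. Both SLAM libraries lay below all others, and the new share was alike in all 4 converted libraries, from 0.355 to 0.384. The log2 difference of old RNA between TUC and SLAM was 1.69 ± 0.170 (SE; limma adjusted p = 0.000107), and total RNA with SLAM fell by 1.53 ± 0.219 against untreated (edgeR adjusted p = 8.01e-05, not passed without the letter block). Total RNA with TUC did not pass against untreated (0.21 ± 0.213, adjusted p = 0.438), and was called without TUC B (0.69).

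Neat1, the noncoding scaffold of paraspeckles, had totals of 215 and 947 RPM in TUC, 153 and 682 RPM in SLAM, and 383 and 1050 RPM in untreated libraries, so letters differed more than groups. Its old RNA was 19.7 and 63.4 RPM in TUC and 12.5 and 44.6 RPM in SLAM, higher in TUC in each letter by 0.58 ± 0.108 on the log2 scale (SE; limma adjusted p = 0.00953). Meg3, an imprinted noncoding RNA whose locus overlaps Rtl1 and microRNAs, showed no such difference that passed, with old levels of 53 and 112 RPM in TUC, 48.6 and 137 RPM in SLAM, and totals of 141 and 216 RPM in untreated libraries (−0.08 ± 0.145, limma adjusted p = 0.903). The nuclear noncoding RNAs had 6 members (17 in the list, 9 in the table), of which 2 passed as higher in TUC than in SLAM for old RNA. All 6 were lower than untreated for old RNA with each chemistry, as were 81.9% (SLAM) and 83.3% (TUC) of all 9934 genes. Total RNA passed as lower for 5 with SLAM (median −0.67), and as higher for 1 and lower for 2 with TUC (median −0.08). Over all genes it passed as lower for 38.6% with SLAM, and as higher for 23.4% and lower for 34.1% with TUC.

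Among coding genes, Col1a1 (ENSMUSG00000001506), the type I collagen chain, had old levels of 1221 and 1644 RPM in TUC and 1966 and 2875 RPM in SLAM, and totals of 1617 and 1905 RPM in untreated libraries. SLAM was above untreated and TUC below it in each letter. The log2 difference of TUC from SLAM was −0.75 ± 0.097 (SE; limma adjusted p = 0.000799). It was −0.31 ± 0.097 for TUC against untreated (limma adjusted p = 0.00795) and 0.44 ± 0.097 for SLAM against untreated (adjusted p = 0.000567, not passed without the letter block). Zbed5 (ENSMUSG00000034173), a zinc finger protein, had old levels of 16.8 and 14.2 RPM in TUC and 34.7 and 27.3 RPM in SLAM, against 15.6 and 14.8 RPM in untreated and 17.8 and 16.8 RPM in unconverted 4sU libraries. Its TUC values overlapped untreated and its SLAM values were well above all others, a difference of −0.99 ± 0.145 between TUC and SLAM (SE; limma adjusted p = 0.00183).

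Hspa4 (ENSMUSG00000020361), a heat shock protein of the HSP110 family, had old levels of 185 and 118 RPM in TUC and 288 and 265 RPM in SLAM, with totals of 333 and 262 RPM in TUC, 489 and 516 RPM in SLAM and 626 and 621 RPM in untreated libraries. Old RNA in TUC was below SLAM in each letter (−0.90 ± 0.121 on the log2 scale, SE; limma adjusted p = 0.000988). Atn1, a transcriptional corepressor, was also lower in TUC, with old levels of 33.2 and 39.7 RPM in TUC and 61.8 and 69.7 RPM in SLAM, against 106 and 136 RPM in untreated libraries. In the other direction, Cox6c, a subunit of cytochrome c oxidase, had old levels of 162 and 154 RPM in TUC and 106 and 103 RPM in SLAM, against 152 and 143 RPM in untreated libraries. Cops9, a small subunit of the COP9 signalosome, had old levels of 52.2 and 55.1 RPM in TUC and 32.9 and 33.4 RPM in SLAM, against 48.9 and 51.4 RPM in untreated libraries. For both genes the TUC values lay just above untreated, which did not pass, and the SLAM values lay below it.

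Among the lists, old RNA was higher in TUC than in SLAM for 6 of 79 ribosomal proteins and lower for 0 (median 0.14), and for 5 of 64 oxidative phosphorylation subunits and lower for 0 (median 0.15), against a median of −0.02 over all genes. Without SLAM A 18 ribosomal proteins passed as higher, without TUC A 0 and without TUC B 1, and without SLAM B 2 oxidative phosphorylation subunits and without TUC A or TUC B 1. The 6 were Rps15a, Rpl38, Rpl27, Rps27a, Rpl30 and Rpl35a. Rpl30, of the large ribosomal subunit, had old levels of 499.6 and 372 RPM in TUC and 335 and 264 RPM in SLAM, against 464 and 462 RPM in untreated libraries. Collagens and matrix genes went the other way, with 0 higher and 2 lower (Col1a1 and Loxl1, a lysyl oxidase) and a median of −0.15. Immediate-early genes had 1 higher and 1 lower, the rest not passing, and these counts were 6 and 3 without SLAM A, 8 and 1 without SLAM B, 10 and 0 without TUC A and 2 and 1 without TUC B. Short-lived regulators had 1 higher and 4 lower, and these counts were 2 and 9 without SLAM A, 12 and 3 without SLAM B, 3 and 3 without TUC A and 6 and 5 without TUC B. With TMM factors they were 8 and 1 for immediate-early genes and 7 and 6 for short-lived regulators, and without untreated A or untreated B 0 passed in either list.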

How the data were processed

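RNA-seq of 10 NIH-3T3 libraries was deposited as 1 table of 17053 genes. Per the file headers, it gives expected counts per gene and library (36.6% of values are not whole) and a fraction between 0 and 1, the new share, as a posterior mode with bounds. Neither was scaled between libraries by the authors, as the deposited count totals differ. The submitters' processing notes list STAR 2.7.10b, Bowtie2 2.3.0 and cutadapt without a version. Which tool counted reads or estimated the new share, and on which build and annotation, is not given in the sources used here. The deposited score values, 16 columns of shape values of the estimate per the file headers, were not used.

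Groups and letters come from the sample titles. The members and gene lists were chosen with earlier results of these data known. Total RNA was tested by quasi-likelihood in edgeR 4.0.16 under R 4.3.3 on rounded expected counts over 12218 genes past filterByExpr and all 10 libraries, with group and letter terms and library totals as library sizes. Old RNA was tested with limma 3.58.1 on log2(old RPM + 0.1) over 6 libraries and 12207 genes, so folds of low genes are understated. P-values were Benjamini-Hochberg adjusted, with a threshold of 0.05. The letter is a term because comparisons are within letter. A minus B differences correlated across genes between groups (r 0.750 for SLAM and TUC, 0.693 for SLAM and untreated, 0.723 for TUC and untreated).

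Named genes were, per comparison, the 8 highest and the 8 lowest log2 changes among called genes with the same sign in both letters and 10 RPM or more in the higher group, up to 4 called members of each list by smallest p, and 8 reference genes, of which Fos did not reach 100 reads in all 6 libraries. Other genes named as called members of a list complete a count. Symbols of 9619 of 9934 members (96.8%) were found in RefSeq's GRCm38.p6 table, used for names and overlaps only. On simulated data with changed genes among 12218, the total test for TUC recovered 98% at 1.5-fold and 100% at 2-fold and called 0.133% of unchanged genes. Over 12207 genes the old test of TUC against SLAM recovered 91% and 100% and called 0.0250% of unchanged genes. The new share was held at the same constant in every converted library there. These rates therefore leave out error of the new share and are not those of the real data. Alternatives were TMM factors, scaling to genes of low new share, 500 reads, no filter, DESeq2 1.42.0, and other pseudocounts and bounds. Further ones were no letter block, a fit of total RNA on the 6 libraries alone, and leaving out each library.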

Additional observations from a re-analysis of the deposited data

Results flagged for a closer look

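Old RNA differed between TUC and SLAM by a test of the difference itself for 221 of 9934 genes, of which Malat1, Col1a1, Zbed5 and Hspa4 are described above. The new share was above 0 in libraries in which 4sU was not converted, with a median of 0.0194 in 4sU A and 0.0177 in 4sU B, against 0.0142 and 0.01 in the uridine libraries.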

How the results depend on the processing

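With old RNA against untreated, every alternative tried kept the number of called genes within 1.5 times of the main value for either chemistry. Without the letter as a replicate block, total RNA called 2069 genes with SLAM and 618 with TUC, and old RNA of TUC against SLAM called 2. That last count (221) was 356 with TMM factors, 458 with a pseudocount of 0.5, 112 with a pseudocount of 0.02, 434 with the lower bound of the new share, and 0 to 493 when 1 library was left out; chosen after seeing the data, at least 3 reads of old RNA gave 229 and genes with a new share under 1 gave 161. Scaling to genes of low new share moved the median log2 total ratio of the highest bin of new share to −0.43 with SLAM (−0.22) and −0.38 with TUC (−0.15), and the count of genes with old RNA above untreated to 187 with SLAM and 71 with TUC. When 1 letter was left out, that count was the one of the remaining library, 553 to 1075 with SLAM and 617 to 865 with TUC. It could not fall there, as the main count asks for both letters. The scaling also reversed H3f3a (total SLAM, −0.014) and H2afx (total TUC, −0.041). Of 4577 alternative values for named genes 4204 kept direction and side of the threshold, 359 no longer passed, 12 newly passed and 2 reversed. At a new share near 1, old RNA rests on few reads. The cause of these shifts was not tested.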
